A study of Homo sapiens with 32 samples.

Results

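This section describes the genes for the proteins of the cytosolic ribosome and of the mitochondrial ribosome in irradiated human epithelial cell lines. Members were chosen by name: the RPL and RPS symbols of the cytosolic ribosome, including RPLP0 to RPLP2, RPSA and the "L" paralogs, and the MRPL and MRPS symbols of the mitochondrial ribosome, with at least 200 estimated counts summed over the 32 libraries. This gave 160 of the 60332 genes in the deposited tables, 82 cytosolic (50 RPL, 32 RPS) and 78 mitochondrial (49 MRPL, 29 MRPS). A further 2 cytosolic names, RPL10L with 2 counts and RPL3L with 77 counts, were under the minimum. All 160 members passed the filter on low counts in each of the 3 sets of libraries, so no member was lost to it.

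The cytosolic ribosome translates the mRNAs of the nucleus. Its proteins are made in near-equal amounts, and most of their mRNAs begin with a C followed by an unbroken run of pyrimidines, the 5′ terminal oligopyrimidine or TOP motif, through which mTOR signalling and the LARP1 protein control their translation and stability. The mitochondrial ribosome is a separate machine that translates the few mRNAs of the mitochondrial genome. Its proteins are also encoded in the nucleus, but their mRNAs are not known as a TOP class. The cytosolic ribosome is tied to p53 through RPL5 and RPL11, which bind MDM2, the ubiquitin ligase of p53, when ribosome assembly is disturbed, and through RPS27L, a paralog of RPS27 that is a p53 target gene.

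Poly-A selected RNA was sequenced from MCF10A, a non-tumorigenic breast epithelial line, and from hTERT RPE-1, a telomerase-immortalised retinal pigment epithelial line, with 2 libraries in each of 16 groups. The first MCF10A set held wild-type cells left untreated, wild-type cells given DMSO and collected 3 or 5 days after 10 Gy, wild-type cells given a CDK1 inhibitor (CDK1i) with 10 Gy and collected at 5 days, and cGAS, STING or XRCC4 knockout cells collected 5 days after 10 Gy. The second MCF10A set held wild-type, p53 knockout, XRCC4 knockout and XRCC4 p53 double knockout cells, all collected 3 days after 10 Gy, and the XRCC4 and double knockouts also with an ATR inhibitor (ATRi). The RPE-1 cells were wild type, wild type with cGAS in the sample name (called cGAS-labelled below) and p53 knockout. All 3 groups of RPE-1 cells received 10 Gy and ATRi and were collected at 3 days. Drugs were given before irradiation and kept until collection. The knockouts were lines grown from single cells after lentiviral Cas9, so each comparison of genotypes is between lines, and no unirradiated knockout was included. DMSO was named only for the irradiated wild-type groups of the first set. cGAS senses cytosolic DNA and signals through STING, XRCC4 joins broken DNA ends with ligase IV, and CDK1 and ATR control entry into mitosis.

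The libraries held 5590061 to 18585999 estimated counts. Over libraries of a line, the summed level of 9 basal breast markers was 5190 to 20800 FPKM in MCF10A and 17.0 to 70.1 in RPE-1. The 6 luminal breast markers summed to 143 to 1020 FPKM in MCF10A and 168 to 593 in RPE-1. In MCF10A KRT8 ran from 29.4 to 505 FPKM, KRT18 from 105 to 497, GATA3 from 4.32 to 12.3 and ESR1 from 0.073 to 10.2. The luminal markers KRT19 and PGR reached at most 1.21 and 1.53 FPKM there. The 6 mesenchymal markers summed to 5920 to 13800 FPKM in RPE-1, against 100 to 1370 in MCF10A. In RPE-1 VIM (2470 to 4520 FPKM) and FN1 (3160 to 9290) were highest, then COL1A1 (18.6 to 44.5) and PDGFRB (5.24 to 18.9). COL1A2 and COL3A1 reached at most 0.837 and 0.939 FPKM there. RPE-1 had OTX2 at 8.24 to 13.4 FPKM, but the defining pigment epithelium genes RPE65, TYR and RLBP1 were at or near 0 (at most 0.022, 0.024 and 0.136 FPKM). Of 7 blood and immune markers, CD14 was the one above 2 FPKM, at 2.25 to 63.5 FPKM in MCF10A. The cGAS gene (MB21D1) had 20 and 15 counts in its knockout against 251 and 254 in irradiated wild type at 5 days, and the STING gene (TMEM173) 127 and 103 against 1214 and 894. XRCC4 counts were 88 and 66 against 140 and 125 in the first set and 134 and 119 against 102 and 122 in the second, so the mRNA does not check that label. In RPE-1 the MB21D1 counts were 2 and 100 in wild type and 6199 and 6158 in the cGAS-labelled cells. The cGAS-labelled cells thus had far more cGAS mRNA than wild type, and the wild-type libraries differed from each other at this gene. The untreated libraries and the STING knockout libraries differed most within their group in the share of counts on cytosolic members.

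The first bases of the mRNA carry the feature by which the cytosolic class is known, so the 25 bases around the annotated start (5 before it, 20 from it) are shown for genes the results turn on, from RefSeq on GRCh38.p14, 5′ to 3′, with any pyrimidine run of at least 5 bases that begins with C within 5 bases of the start in capitals. The pairs RPS27 with RPS27L and RPL22 with RPL22L1 are paralogs, RPL3 and RPS6 are core cytosolic subunits, and MRPL12 and MRPS18C are mitochondrial.
RPS27 (chr1:153990757-153990781, plus strand): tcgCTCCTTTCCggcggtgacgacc
RPS27L (chr15:63157458-63157482, minus strand): cgagcgcagatcgcttgcagcttgc
RPL22 (chr1:6199576-6199600, minus strand): aCCTCCCTTTCTaactccgctgccg
RPL22L1 (chr3:170870176-170870200, minus strand): gCTTCCTCTCTgctctcgcggccga
RPL3 (chr22:39319604-39319628, minus strand): ccggCCTCTaccggcgggatttgat
RPS6 (chr9:19380217-19380241, minus strand): tggCCCTCTTTTCCgtggcgcctcg
RPL13A (chr19:49487603-49487627, plus strand): tCCTCCTTTTCCaagcggctgccga
RPL26L1 (chr5:172958724-172958748, plus strand): gggtcggcgaacgaaacgcggagct
MRPL12 (chr17:81703362-81703386, plus strand): agagcgtcatttccggctcgaatgc
MRPS18C (chr4:83456053-83456077, plus strand): aaggaagtggaagaaacgcggaacc
RPS27 and RPL22 carry long runs. RPL22L1 keeps a run of 10 bases, while RPS27L, RPL26L1 and the 2 mitochondrial genes have no run of at least 5 bases that begins with C within 5 bases of the start.

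Of the members with a window in the RefSeq table, 66 cytosolic and 69 mitochondrial, such a run within 5 bases of the start was present in 51 (77.3%) and 15 (21.7%), against 21.1% of 27305 promoters of all genes. With the run required to begin at the annotated start base itself, the counts were 43 (65.2%) and 5 (7.25%), against 4.04% of all. In the 300 bases from 250 before to 50 after the start, the letters CCGGAAG, the core bound by ETS factors, were found on either strand in 34.8% of cytosolic, 42.0% of mitochondrial and 10.7% of all promoters. AAGATGG, the core bound by YY1, was found in 13.6%, 33.3% and 6.06%. These 2 motifs can overlap by the letters AAG, and the joined form occurred in 0 of the 66, 0 of the 69 and 7 of all promoters. Matches describe letters, not binding. In the XRCC4 knockout at 3 days, described below, the median log2 fold change was 0.96 for the 51 cytosolic genes with a run and 0.74 for the 15 without one, and in the MCF10A p53 knockout it was −0.20 and −0.09. In the RPE-1 p53 knockout it was −0.36 and −0.39, at 5 days after 10 Gy −0.63 and −0.57, and in the double against the XRCC4 knockout with ATRi −1.12 and −1.04. These medians are descriptions.

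By level per length, the cytosolic mRNAs were far above the mitochondrial ones. The median member had a mean of 1800 FPKM in the cytosolic set and 61.0 FPKM in the mitochondrial set. RPS3 (5260 FPKM), RPL8 (4930) and RPS19 (4690) had the highest means, and the paralogs RPL39L (7.71), RPL7L1 (39.3) and RPL26L1 (61.5) the lowest of the cytosolic set. Among mitochondrial genes MRPL51 (276 FPKM), MRPL52 (163) and MRPL13 (144) were highest and MRPL50 (10.7), MRPL57 (15.5) and MRPS31 (18.0) lowest. Some paralogs also varied most over the 16 group means: RPL39L by 4.69 on the log2 FPKM scale, RPS27L by 2.95 and RPL22L1 by 2.60. The median of the cytosolic set was 1.78, with the paralog RPL26L1 (1.95) near it and RPL7L1 (0.8) below it. In the mitochondrial set the widest ranges were those of MRPS21 (3.48), MRPS27 (1.98) and MRPS35 (1.93), against a median of 1.17. MRPS21, a small-subunit protein, was at 7.87 to 19.9 FPKM in the 6 RPE-1 libraries and at 65.8 to 99.1 in the 26 MCF10A libraries, with no overlap between the lines. The lines were fitted apart, so this difference has no test.

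The share of all counts that fell on the 82 cytosolic genes ran from 2.83% to 10.3% over the libraries, a 3.64-fold range, while the share on the 78 mitochondrial genes ran from 0.283% to 0.465%, a 1.64-fold range. Counting error was at most 0.022 and 0.0051 percentage points either way (95% Wilson intervals, which cover counting error only). The cytosolic share was 8.12% and 9.98% in the untreated libraries, 7.76% and 7.43% at 3 days after 10 Gy and 5.34% and 5.87% at 5 days. It was highest in the second set's XRCC4 knockout, at 9.91% and 10.1%, and in the same line with ATRi, at 10.3% and 9.94%. Wild type of that set stood at 5.49% and 5.47%, p53 knockout at 5.12% and 5.05%, the double knockout at 6.61% and 6.65%, and the double knockout with ATRi at 5.62% and 5.71%. RPE-1 was lowest, at 3.83% and 3.78% in wild type, 2.90% and 2.83% in the cGAS-labelled cells and 3.52% and 3.54% in the p53 knockout. In that order of means the neighbouring groups between the first set's cGAS knockout (7.81%) and the double knockout (6.63%), that is irradiated wild type at 3 days (7.59%), CDK1i (7.29%) and STING knockout (7.23%), overlapped in their libraries. The ratio of the cytosolic to the mitochondrial share, taken per library and averaged over a group, was 22.8 in the second set's XRCC4 knockout and 19.9 in untreated cells. It was 13.9 in the second set's wild type, 10.9 in its p53 knockout and 9.21 in the cGAS-labelled RPE-1 cells. Wild-type MCF10A collected 3 days after 10 Gy was present in both MCF10A sets, with a mean of 7.59% in the first and 5.48% in the second; the sets differ in the named DMSO as well as in their libraries, and these cannot be told apart. A share is relative to all mRNA, so lower levels per cell and fewer cells with the mRNA cannot be told apart, and neither can a rise of other mRNAs.

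**Figure D1:**
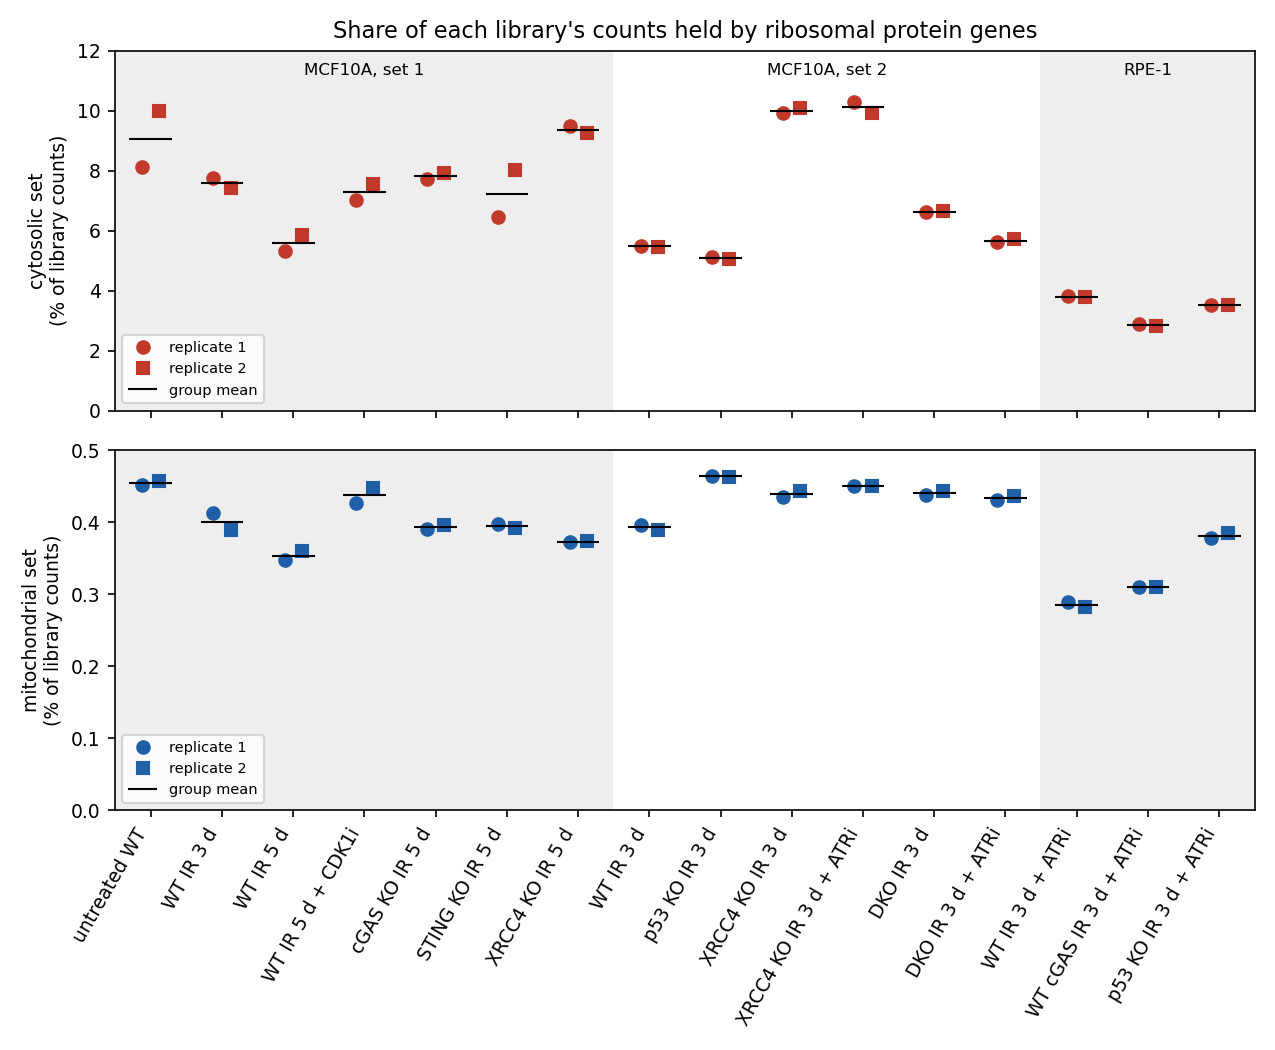
Share of all estimated counts on the 82 cytosolic (upper panel, percent) and 78 mitochondrial (lower panel, percent) ribosomal protein genes in each of the 2 libraries of the 16 groups; points are libraries and short lines are group means. The cytosolic share spans 2.83% to 10.3% and peaks in XRCC4 knockout MCF10A, while the mitochondrial share stays between 0.283% and 0.465%.

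For tests, each set was fitted on its own with edgeR's robust quasi-likelihood test and Benjamini-Hochberg adjustment across the genes that passed the filter there (15190, 16632 and 15469), and a gene was called at an adjusted p under 0.05. "Rose" and "fell" are used for called genes. Levels given per library below are CPM with libraries scaled by TMM, fold changes are log2 with their standard errors, n is 2 libraries a group, and the adjusted p-values are from edgeR. Whether replicate libraries were separate cultures is not stated, so these p-values measure only a spread that may be technical. Comparisons within a set share control libraries. Shares of all genes are those of this main fit. Member counts given below for other tools, scalings, filters or library sets have no share of all genes beside them.

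Most cytosolic ribosomal protein mRNAs of wild-type MCF10A were lower 5 days after irradiation than in untreated cells. At 3 days, RPS27L rose and RPL22L1 fell, and these were the only calls among 82 cytosolic genes, in a background where 3.75% of all genes rose and 2.65% fell; 6 of 78 mitochondrial genes fell, a count that was 0 to 3 with any 1 library left out. At 5 days 63 cytosolic genes fell and 1 rose, and 30 mitochondrial genes fell and 3 rose, where 13.3% of all genes fell and 14.6% rose. The median log2 fold change at 5 days was −0.61 for cytosolic and −0.28 for mitochondrial genes.

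RPS27L was the 1 cytosolic gene called higher, at both times. Its level was 45.9 and 67.7 CPM untreated, 96.5 and 98.4 at 3 days and 110 and 92.8 at 5 days, a log2 fold change of 0.78 ± 0.17 (SE, adjusted p 0.0254) at 3 days and of 0.84 ± 0.17 (adjusted p 0.00527) at 5 days. Both untreated libraries lay below all 4 irradiated ones. RPL22L1, the paralog of RPL22, was at 138 and 148 CPM untreated, 80.8 and 78.8 at 3 days and 54.1 and 55.6 at 5 days. It fell by 0.84 ± 0.13 (adjusted p 0.00834) and then by 1.38 ± 0.13 (adjusted p 0.000253) on the log2 scale against untreated cells, with no overlap of libraries between the 3 groups. The 2 paralogs thus moved in opposite directions.

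Of the other cytosolic genes, RPL5 and RPL3 had the largest decreases at 5 days after RPL22L1. RPL5, the 5S rRNA partner that binds MDM2, was at 1490 and 1760 CPM untreated and 704 and 820 at 5 days, and fell by 1.10 ± 0.17 on the log2 scale (adjusted p 0.00179). RPL3, a protein near the peptidyl transferase centre, was at 3110 and 3790 CPM and then 1540 and 1750, and fell by 1.07 ± 0.16 (adjusted p 0.00166). RPL11, the partner of RPL5 in binding MDM2, was at 1170 and 1500 CPM and then 928 and 989, a smaller decrease of log2 fold change −0.48 (adjusted p 0.0438). The stalk protein RPLP0 (log2 fold change −0.72), RPS6, the subunit phosphorylated downstream of mTOR (−0.77), RPSA, the laminin receptor homologue (−0.63), and RPL10, which is needed for joining of the subunits (−0.70), all fell. RPS19, mutated in Diamond-Blackfan anaemia, was not called, with 1240 and 1550 CPM untreated and 1380 and 1330 at 5 days, groups that overlap.

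Mitochondrial members split. MRPL48, a large-subunit protein, was at 27.9 and 33.8 CPM untreated and 17.2 and 16.9 at 5 days and fell the most (log2 fold change −0.86), followed by MRPS9 (−0.79) and MRPL10 (−0.78). MRPL12, which also binds the mitochondrial RNA polymerase, was at 95.8 and 90.8 CPM and then 62.8 and 64.5 (log2 fold change −0.55). MRPS6 rose from 35.5 and 38.2 to 54.4 and 50 CPM (log2 fold change 0.50), as did MRPL27 (0.43) and MRPL49 (0.34).

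Between 3 and 5 days no member was called by edgeR in either set, with medians of −0.36 cytosolic and −0.13 mitochondrial; 0.0132% of all genes rose and 0.00658% fell. At an unadjusted p under 0.05, 51 cytosolic and 15 mitochondrial genes were lower at 5 days, and DESeq2 called 18 cytosolic genes and 0 mitochondrial genes. The shares of all genes at that threshold or by DESeq2 are not given here, so these counts have no background. At 3 days DESeq2 called 1 cytosolic gene higher and 2 lower, against 1 and 1. The counts at 5 days against untreated cells rest on the spread of few libraries: 18 cytosolic genes were called without the first library at 5 days, 42 without the second and 35 without the second untreated library, and 17 mitochondrial genes without the first library at 5 days. A fit of only the groups compared called 0 cytosolic and 0 mitochondrial genes at 3 days and 6 and 7 at 5 days.

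**Figure D2:**
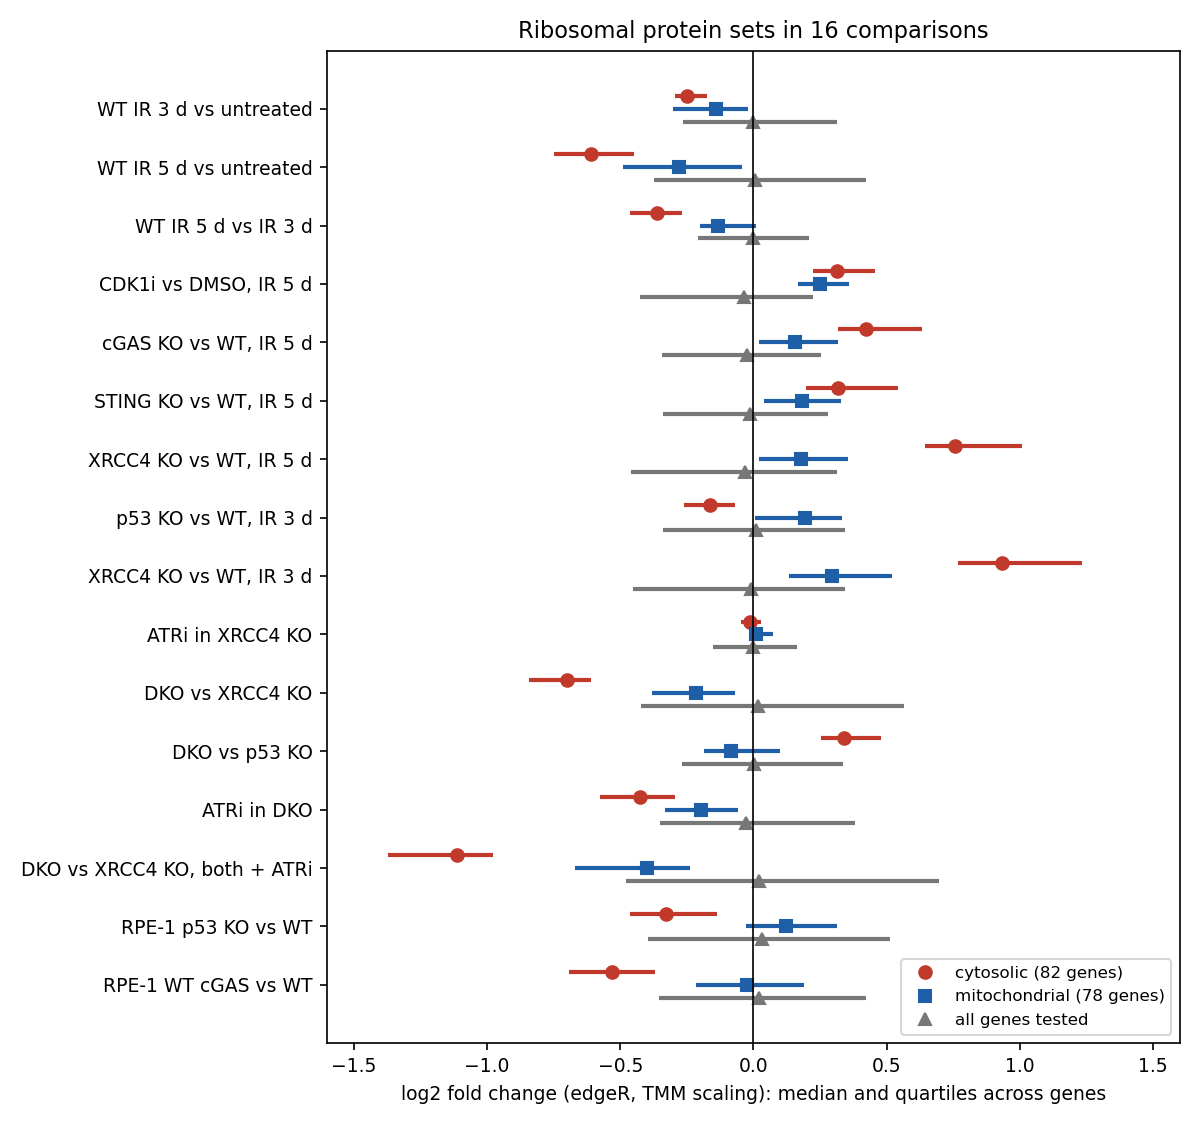
Median log2 fold change of cytosolic members, mitochondrial members and all tested genes in 16 pairwise comparisons; bars through the points span the quartiles over genes, not replicate error. The cytosolic median lies farther from 0 than the mitochondrial median in most comparisons, from −1.11 in the double knockout with ATRi against the XRCC4 knockout with ATRi to 0.93 in the XRCC4 knockout against wild type.

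In cells kept in the CDK1 inhibitor for the 5 days, 7 cytosolic and 16 mitochondrial genes were higher than in irradiated cells without it, where 4.27% of all genes rose and 6.42% fell; every call among members was upward. The medians were 0.32 and 0.25. RPL22L1 had 148 and 176 CPM with the inhibitor and 54.1 and 55.6 without, a log2 fold change of 1.56 ± 0.13 (adjusted p 0.000903), beside 138 and 148 in untreated cells. RPL22 rose from 138 and 150 to 222 and 284 CPM (log2 fold change 0.82), and RPL3 from 1540 and 1750 to 2610 and 2790 (0.71). MRPL1 rose from 20.2 and 15.9 to 31.8 and 32.9 CPM (0.85), MRPS27 by 0.59 and MRPL24 by 0.57 on the log2 scale. The cytosolic call counts moved with the tool and the libraries: DESeq2 called 30, and 1 was called without either irradiated wild-type library or without the second inhibitor library. The mitochondrial count was 0, 3 and 1 in those 3 cases, and a fit of only these groups called 0 in both sets.

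The knockout lines of the first set all had more cytosolic ribosomal protein mRNA than wild type 5 days after 10 Gy. In the cGAS knockout 31 cytosolic genes rose and 1 fell and 12 mitochondrial genes rose (medians 0.42 and 0.16), where 6.21% of all genes rose and 6.33% fell. In the STING knockout 26 and 14 rose (medians 0.32 and 0.18), where 7.06% of all genes rose and 7.12% fell. In the XRCC4 knockout 74 and 22 rose (medians 0.76 and 0.18), where 11.9% of all genes rose and 12.1% fell.

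RPL7, a large-subunit protein, was among the largest in all 3. It had 500 and 563 CPM in wild type, 1020 and 1090 in the cGAS knockout and 1350 and 1430 in the XRCC4 knockout, with log2 fold changes of 0.99 ± 0.15 (adjusted p 0.00345) and 1.39; it was 0.84 in the STING knockout. RPL13A, which also acts outside the ribosome, rose from 1920 and 2030 to 5030 and 4780 CPM in the XRCC4 knockout (1.31), and RPL3 by 1.12 on the log2 scale there. In each of these cases both knockout libraries were above both wild-type libraries.

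Of the paralogs, RPL22L1 rose with the core genes, from 54.1 and 55.6 CPM to 77.6 and 86.0 in the cGAS, 74.6 and 77.2 in the STING and 117 and 92.6 in the XRCC4 knockout (log2 fold changes 0.58, 0.47 and 0.94), and others did not. RPL39L, a low-level paralog of RPL39, fell in the cGAS knockout, from 1.92 and 2.25 to 0.432 and 0.865 CPM (log2 fold change −1.71 ± 0.42, adjusted p 0.0255), and was not called in the STING knockout (−0.29, adjusted p 0.667). RPS27L overlapped wild type in the XRCC4 knockout, with 97.6 and 110 against 110 and 92.8 CPM (log2 fold change 0.04, adjusted p 0.898). Among mitochondrial genes MRPL15 rose from 45.6 and 46.8 CPM to 85.8 and 89.3 in the cGAS knockout (0.92), and by 0.96 in the STING and 0.86 in the XRCC4 knockout. MRPS33 rose the most in the XRCC4 knockout, from 35.5 and 33.5 to 74.0 and 71.2 CPM (1.07).

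Where a member lies in the genome moved with these values. In the cGAS and STING knockouts the median log2 fold change of genes that are no members was above 0.2 in size on chromosomes 7, 8, 11, 13, 19 and 21. Chromosome 21, which holds no cytosolic member, was lowered (−0.22 in both knockouts), and the others were raised. On these 6 chromosomes, 22 cytosolic genes had medians of 0.73 (cGAS) and 0.65 (STING) with 21 and 20 called. The 60 cytosolic genes elsewhere had 0.38 and 0.25 with 10 and 6 rising. For mitochondrial genes the medians were 0.50 and 0.48 on these chromosomes with 12 called in each, and 0.10 and 0.12 elsewhere with 0 and 2 called. In the XRCC4 knockout the 59 cytosolic genes off chromosomes 7, 8, 11, 13, 19 and 22 had a median of 0.69 with 51 rising, against 1.09 and 23 of 23 on them, and 8 of 57 mitochondrial genes off them rose. Of these chromosomes, 22 was lowered (−0.21), although its cytosolic member RPL3 rose, and the others were raised. The part of chromosome position in the calls was not tested. Calls of other genes were not split by chromosome, here or in the comparisons below. Member counts by chromosome therefore have no background beside them. No chromosome passed this limit in the comparisons of irradiation, CDK1i, ATRi in the XRCC4 knockout, or RPE-1.

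Call counts in these 3 comparisons also depended on the libraries. With only the groups compared in the fit, 0 cytosolic and 6 mitochondrial genes were called for the STING knockout and 73 and 24 for the cGAS knockout. Without a wild-type library 8 or 11 cytosolic genes were called for the cGAS knockout and without a knockout library 4 or 6; without a wild-type library 4 or 6 were called for the STING knockout, and 4 without its second library; and 47 without the first wild-type library for the XRCC4 knockout. Mitochondrial counts were 5 to 6, 6 to 10 and 7 to 10 over the libraries left out in turn, and on library totals, where the median of all genes was −0.188, the XRCC4 count became 8 higher and 4 lower, and 4 and 3 on log2 FPKM, where the mitochondrial median was −0.08.

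At 3 days in the second set, the XRCC4 knockout was again compared with wild type. This was a separate set of libraries, at another day and with no DMSO named. Here 80 of 82 cytosolic genes and 58 of 78 mitochondrial genes rose, all calls being upward, where 28.7% of all genes rose and 27.8% fell, and the medians were 0.93 and 0.29. RPL22L1 was at 67.7 and 61.6 CPM in wild type and 208 and 219 in the knockout (log2 fold change 1.73 ± 0.06, adjusted p 2.45e-19). RPL13A was at 1730 and 1750 and then 5360 and 5530 CPM (1.65), and RPL7 at 502 and 504 and then 1540 and 1580 (1.64). RPL3 (1.31), RPS6 (1.11), RPLP0 (1.07) and RPSA (0.72) rose as well.

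The 2 cytosolic genes not called were both paralogs. RPL39L was at 3.67 and 2.99 CPM in wild type and 3.08 and 2.40 in the knockout (log2 fold change −0.27, adjusted p 0.305), and RPL26L1 had a log2 fold change of −0.12 (adjusted p 0.238). RPL7L1 (0.27) and RPS27L (0.37, from 117 and 105 to 145 and 142 CPM) rose less than the median. In the mitochondrial set MRPL23 rose from 24.4 and 26.1 to 53.9 and 57 CPM (1.13), MRPL21 by 1.11, MRPS31 by 1.06 and MRPS12, the homologue of the bacterial decoding-centre protein S12, by 0.94 on the log2 scale. MRPL41 was not called (−0.01, adjusted p 0.916).

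The values again differed by chromosome. Genes that are no members had medians of 0.40 on chromosome 8, 0.44 on 11, 0.48 on 13 and 0.36 on 19. The 22 cytosolic genes on these 4 had a median of 1.32 with all 22 rising, and the 60 elsewhere 0.82 with 58 rising. The 16 mitochondrial genes there had a median of 0.90 with all 16 rising, and the 62 elsewhere 0.24 with 42 rising. On library totals, where the median of all genes was −0.198, 33 mitochondrial genes rose and 10 fell, and 27 and 5 on log2 FPKM, while the cytosolic median stayed 0.63 to 0.64 above the mitochondrial one under every scaling run. The 2 XRCC4 contrasts shared no library but differed in day and in the named DMSO. In both, other genes on chromosomes 8, 11, 13 and 19 had raised medians. Called higher in both were 74 cytosolic and 21 mitochondrial genes. Pearson's r across genes was 0.91 and 0.74 (genes are not independent replicates). These overlaps and correlations were computed for members only, so they have no value over all genes beside them.

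**Figure D3:**
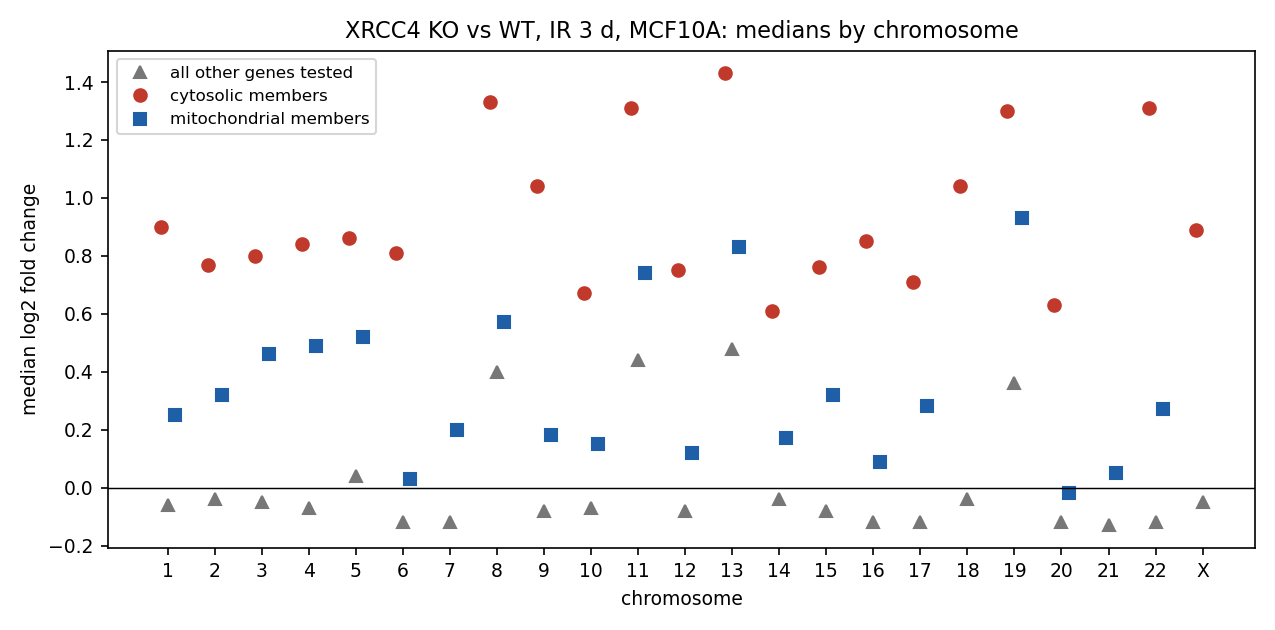
Median log2 fold change by chromosome in the XRCC4 knockout against wild type at 3 days, for genes that are no members, cytosolic members and mitochondrial members. On every chromosome with cytosolic members their median lies above that of the other genes, and the other genes' medians are raised on chromosomes 8, 11, 13 and 19 (0.36 to 0.48).

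In the p53 knockouts of both cell lines the genes of the 2 ribosomes went opposite ways. In MCF10A 53 cytosolic genes fell and 3 rose while 43 mitochondrial genes rose and 10 fell (medians −0.16 and 0.19), where 25.6% of all genes rose and 27.2% fell. In RPE-1 65 cytosolic genes fell and 3 rose while 35 mitochondrial genes rose and 8 fell (medians −0.33 and 0.12), where 34.3% of all genes rose and 32.6% fell. RPE-1 cells had ATRi in addition, and the MCF10A cells did not.

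RPS27L had the largest decrease of the cytosolic genes in both lines. It was at 117 and 105 CPM in wild-type and 29.1 and 32.4 in p53 knockout MCF10A (log2 fold change −1.86 ± 0.06, adjusted p 2.67e-22). In RPE-1 it was at 238 and 222 and then 88.4 and 91.7 CPM (−1.35 ± 0.05, adjusted p 3.27e-17). The known p53 target CDKN1A fell by 3.27 and 3.41 on the log2 scale in MCF10A and RPE-1, and MDM2 by 2.42 and 2.28.

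Among core genes RPS19 fell in both lines, from 1350 and 1300 to 841 and 762 CPM in MCF10A (log2 fold change −0.72) and from 1110 and 1040 to 661 and 643 in RPE-1 (−0.72). RPL3 fell from 1680 and 1670 to 1210 and 1170 CPM in MCF10A (−0.49) and from 1270 and 1290 to 614 and 595 in RPE-1 (−1.08). RPL5 had 743 and 760 against 775 and 775 CPM in MCF10A and was not called (0.04, adjusted p 0.311); in RPE-1 it fell (−0.16), but with library totals its value was 0.09. RPL11 fell in both (−0.21 and −0.36). RPL22L1 fell by 0.37 in MCF10A and by 1.31 in RPE-1, where it went from 74.5 and 74.9 to 30.8 and 29.6 CPM.

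RPL39L was the largest of the few increases. It was at 3.67 and 2.99 CPM in wild-type and 7.34 and 7.29 in p53 knockout MCF10A (log2 fold change 1.14 ± 0.19, adjusted p 3.67e-06), and at 8.99 and 7.74 and then 12.8 and 13.4 CPM in RPE-1 (0.66). The other cytosolic genes that rose were the paralogs RPL26L1 (0.24) and RPL7L1 (0.16) in MCF10A, and RPS15 (0.14) and RPS16 (0.11) in RPE-1.

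The mitochondrial genes with the largest increases differed by line. MRPL11 rose from 26.9 and 25.6 to 45.4 and 42.9 CPM in MCF10A (log2 fold change 0.75), and MRPS35 from 69.8 and 67.0 to 133 and 132 CPM in RPE-1 (0.96). MRPS18C, one of 3 mammalian versions of S18, rose in both, from 20.6 and 19.9 to 29.5 and 34.8 CPM in MCF10A (0.66) and from 19.3 and 17.8 to 34.3 and 34.6 in RPE-1 (0.90). MRPL32 (−0.64), MRPL27 (−0.59) and MRPS17 (−0.55) fell in MCF10A, and MRPS21 (−0.61), MRPL33 (−0.50) and MRPS25 (−0.45) in RPE-1. On chromosome 7, where other genes had a median of −0.51 in the MCF10A knockout, the 4 mitochondrial members all fell, and of the 74 elsewhere 43 rose and 6 fell. No library was shared between the lines: 45 cytosolic genes were called lower in both and 26 mitochondrial genes higher in both, with Pearson's r across genes of 0.63 and 0.39. Overlap and correlation were again computed for members only, without the same over all genes.

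Scaling moved the level of both sets but not their distance. On library totals, where the median of all genes was 0.106 in MCF10A and 0.28 in RPE-1, the cytosolic split was 10 higher and 40 lower in MCF10A and 23 and 38 in RPE-1, and on log2 FPKM 10 and 30, and 22 and 35. The mitochondrial split in RPE-1 was 64 and 4 on library totals and 61 and 2 on log2 FPKM. The shares of all genes called under these scalings are not given, so these splits have no background. The cytosolic median lay between 0.36 and 0.38 below the mitochondrial one in MCF10A and between 0.45 and 0.49 below it in RPE-1 under all scalings run, and the 2 medians kept opposite signs under each.

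**Figure D4:**
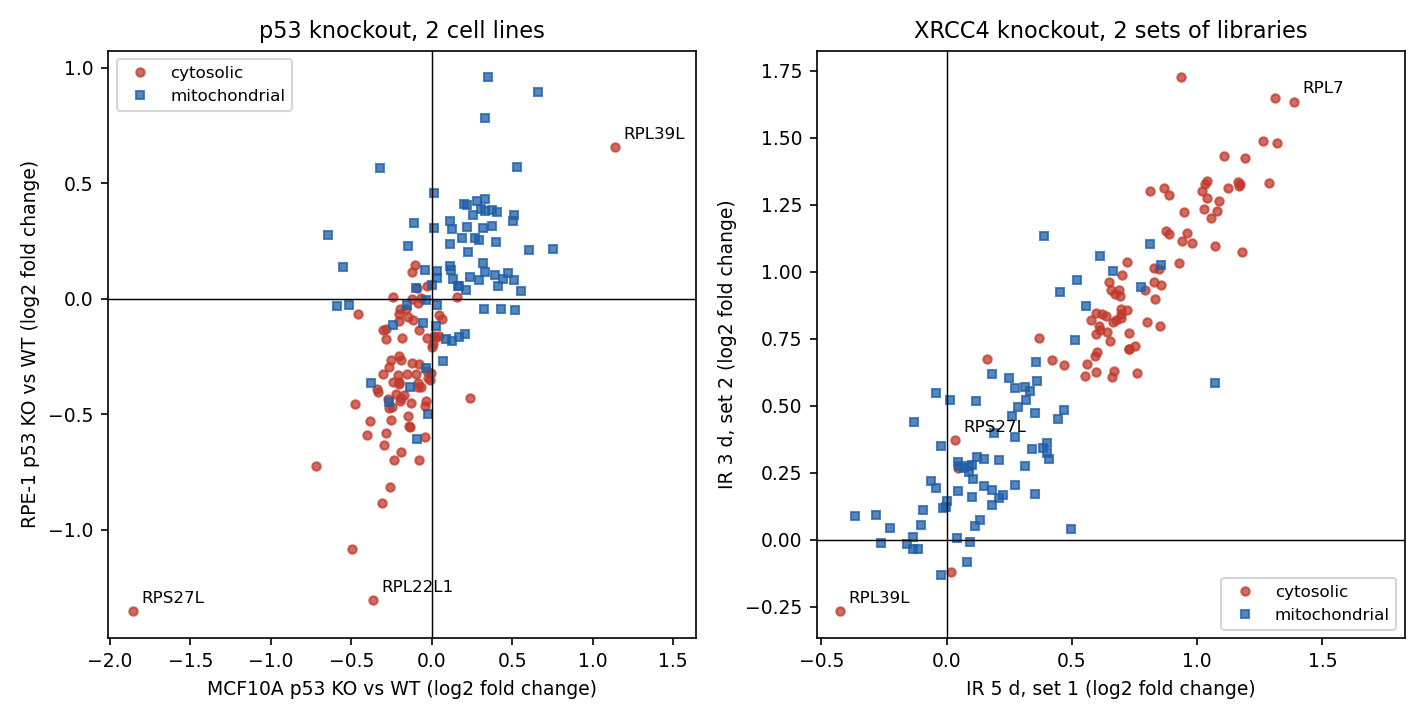
Log2 fold changes of single genes in comparisons that share no library: the p53 knockout in MCF10A against RPE-1 (left) and the XRCC4 knockout at 5 days against 3 days (right), with cytosolic and mitochondrial members as separate symbols. In the left panel 45 cytosolic genes were called lower in both lines and 26 mitochondrial genes higher in both, and RPS27L lies farthest toward the lower left. The overlap over all genes was not counted.

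The double knockout had less cytosolic ribosomal protein mRNA than the XRCC4 knockout and more than the p53 knockout. Against the XRCC4 knockout 80 cytosolic genes fell and 1 rose and 49 mitochondrial genes fell and 7 rose (medians −0.70 and −0.22), where 32.9% of all genes fell and 32.2% rose. Against the p53 knockout 73 cytosolic genes rose and 1 fell while 28 mitochondrial genes fell and 15 rose (medians 0.34 and −0.09), where 24.4% of all genes rose and 24.7% fell. The difference between the XRCC4 effect without p53 and the XRCC4 effect with p53, as an interaction term, was below 0 for all 82 cytosolic genes (median −0.56), and 80 were called, where 23.1% of all genes were called in that direction and 21.4% in the other. Of the mitochondrial genes 58 were called below 0 and 1 above (median −0.38).

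RPS27L was at 145 and 142 CPM in the XRCC4 knockout and 33.3 and 34.2 in the double knockout (log2 fold change −2.09), and did not differ by the test between the double and the p53 knockout (0.14, adjusted p 0.105). RPL22L1 fell against the XRCC4 knockout by 1.52 on the log2 scale, and RPL7 went from 1540 and 1580 to 579 and 560 CPM (−1.46). RPL39L was the 1 cytosolic gene that rose, from 3.08 and 2.40 to 6.27 and 5.47 CPM (1.09). Against the p53 knockout RPL28 rose most, from 455 and 401 to 894 and 897 CPM (1.06), then RPL13A (0.97), and RPL26L1 was the 1 that fell (−0.26). MRPL41 fell against both, from 28.4 and 31.6 CPM in the XRCC4 knockout (−0.997) and from 24.8 and 21.6 in the p53 knockout (−0.63) to 15.1 and 14.9. MRPS33 rose against the p53 knockout (0.74), and MRPL22 against the XRCC4 knockout (0.44).

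Other genes on chromosomes 8 and 11 had medians of −0.35 and −0.47 in the double against the XRCC4 knockout. The 9 cytosolic members there had a median of −1.21, and the 73 elsewhere −0.68 with 71 falling. Against the p53 knockout chromosomes 7, 13 and 19 had medians of 0.49, 0.55 and 0.35. There 13 of 13 cytosolic members rose (median 0.80), and elsewhere 60 of 69 (0.31). On library totals the median of all genes was 0.242 against the XRCC4 knockout and the mitochondrial split there became 21 higher and 21 lower with a median of 0.01, by upper quartile scaling 13 and 36, and on log2 FPKM 20 and 16. The mitochondrial split against the p53 knockout was 12 and 14 by DESeq2 and 8 and 29 on log2 FPKM plus 1.

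The ATR inhibitor was tested in lines with and without p53. With p53, in the XRCC4 knockout, 1 cytosolic gene rose and 2 fell and 3 mitochondrial genes rose (medians −0.01 and 0.01), where 7.0% of all genes rose and 11.0% fell. Without p53, in the double knockout, 76 cytosolic genes fell and 1 rose and 46 mitochondrial genes fell and 4 rose (medians −0.43 and −0.20), where 32.3% of all genes fell and 25.1% rose. The difference of these 2 responses, tested as an interaction, was below 0 and called for 74 cytosolic and 37 mitochondrial genes and above 0 for 1 of each, where 21.3% and 13.3% of all genes were called. Its median was −0.42 and −0.22.

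RPL3 was lower with ATRi in both lines. It was at 4120 and 4190 CPM in the XRCC4 knockout and 3840 and 3600 with ATRi (log2 fold change −0.16), and at 1960 and 1920 in the double knockout and 902 and 911 with ATRi (−1.10 ± 0.04, adjusted p 2.64e-22). RPL22L1 fell in the double knockout from 74.6 and 74.1 to 35.2 and 41.9 CPM (−0.94), and RPL10A, a protein of the L1 stalk, by 0.76 on the log2 scale. RPL5 went from 891 and 875 to 568 and 561 CPM (−0.65), RPL11 from 922 and 923 to 602 and 621 (−0.59). RPS27L was the 1 cytosolic gene that rose, from 33.3 and 34.2 to 49.9 and 47.2 CPM (0.52), with both pairs of libraries apart. RPL36 (0.11) rose and RPL7A (−0.11) fell in the XRCC4 knockout, where RPL22, RPL11 and RPLP0 overlapped between the groups.

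MRPL12 fell in the double knockout from 64.3 in both libraries to 39.1 and 38.7 CPM (log2 fold change −0.73), followed by MRPL30 (−0.64) and MRPS25 (−0.55). MRPL49 (0.48), MRPS18A (0.31) and MRPL10 (0.17) rose. In the XRCC4 knockout MRPL54 (0.35), MRPL53 (0.21) and MRPS12 (0.15) rose. With ATRi in both, the double knockout against the XRCC4 knockout gave 80 cytosolic genes lower and 1 higher, RPL39L (1.05), and 65 mitochondrial genes lower and 2 higher, MRPL9 (0.20) and MRPL49 (0.16), where 36.0% of all genes fell and 35.3% rose. RPL22L1 was at 191 and 204 CPM against 35.2 and 41.9 (−2.35), and RPL3 (−2.04) and RPL7 (−1.99) followed. The cytosolic median was −1.11, the farthest from 0 of the 16 comparisons, and the mitochondrial one −0.40. Here genes that are no members had shifted medians on chromosomes 8, 11 and 13, where the 10 cytosolic members, RPL7 among them, had a median of −1.5, against −1.1 for the 72 elsewhere, of which 70 fell. For ATRi in the double knockout chromosome 19 was shifted, and its 12 cytosolic members had a median of −0.23, against −0.45 for the 70 elsewhere.

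For ATRi in the double knockout and for the double against the XRCC4 knockout with ATRi, the direction of the mitochondrial median depended on scaling, while the cytosolic median stayed below 0. On library totals the median of all genes was 0.166 for ATRi in the double knockout, 0.417 for the double against the XRCC4 knockout with ATRi and 0.127 for the interaction, and the mitochondrial splits were 17 higher and 22 lower, 23 and 24, and 5 and 13. By upper quartile scaling the first 2 were 11 and 28, and 7 and 46; on log2 FPKM plus 1 they were 13 and 16, and 26 and 20, with medians of 0.02 and 0.03. For ATRi in the XRCC4 knockout the cytosolic median of −0.01 became 0.01 on library totals, by upper quartile scaling and on log2 FPKM. The cytosolic count there was 3 and 1 on library totals, 1 and 1 by upper quartile scaling, 0 and 2 with no filter and 0 and 1 on log2 FPKM, and 1 without the first library lacking ATRi.

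In RPE-1 the cGAS-labelled cells had lower cytosolic ribosomal protein mRNA than wild type, both under 10 Gy and ATRi. Their MB21D1 counts were 6199 and 6158, against 2 and 100 in wild type. In this comparison 75 cytosolic genes fell and 1 rose, while 26 of 78 mitochondrial genes fell and 20 rose (medians −0.53 and −0.02). Of all genes 30.2% fell and 30.0% rose, so the mitochondrial counts are near the background. RPLP0 was at 1180 and 1210 CPM in wild type and 545 and 533 in the cGAS-labelled cells (log2 fold change −1.15 ± 0.04, adjusted p 1.23e-17). RPSA was at 481 and 473 and then 233 and 221 CPM (−1.07), and RPL4 at 1340 and 1350 and then 666 and 657 (−1.02). RPS27L was the 1 gene that rose (0.11, adjusted p 0.0421), while RPL22L1 fell from 74.5 and 74.9 to 37.1 and 37.5 CPM and RPS19, with 1110 and 1040 against 1070 and 1060 CPM, overlapped.

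MRPS18C rose from 19.3 and 17.8 to 37.4 and 36.5 CPM (log2 fold change 1.00), MRPL2 from 21.0 and 20.0 to 35.7 and 34.9 (0.78) and MRPL49 by 0.68 on the log2 scale. MRPL51 (−0.65), MRPL52 (−0.55) and MRPL33 (−0.52) fell, and MRPL51 and MRPL52 are the 2 mitochondrial members with the highest mean FPKM. On library totals, where the median of all genes was 0.174, the mitochondrial split was 35 higher and 12 lower with a median of 0.13, and 31 and 7 on log2 FPKM with a median of 0.18. This comparison and the RPE-1 p53 comparison share the wild-type libraries.

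Read along the 16 groups, the 3 variable paralogs had patterns of their own, given here in FPKM, which compares genes per length. RPS27L (hg19 locus chr15:63413999-63450220) was at 107 and 150 FPKM in untreated MCF10A, 219 and 229 at 3 days and 238 and 214 at 5 days after 10 Gy, and at 289 and 260 in the second set's wild type. It was at 79.5 and 85.8 in the p53 knockout and 86.2 and 90.6 in the double knockout, the lowest pairs of MCF10A, and at 142 and 140 in the double knockout with ATRi. In RPE-1 it was at 551 and 505 in wild type, 624 and 651 in the cGAS-labelled cells and 240 and 250 in the p53 knockout, so that p53 knockout RPE-1 cells held about the level of irradiated wild-type MCF10A. RPS27 itself stayed between 1770 and 5910 FPKM. RPL22L1 (chr3:170582664-170588272) was at 419 and 431 FPKM in untreated cells, 148 and 159 at 5 days after 10 Gy and 414 and 517 with CDK1i. It was highest in the second set's XRCC4 knockout, at 540 and 563, and lowest in p53 knockout RPE-1, at 91.8 and 90. RPL39L (chr3:186838736-186898696) was lowest in the cGAS knockout, at 0.639 and 1.36 FPKM, rose from 6.17 and 5.41 to 14.2 and 14.8 with loss of p53 in MCF10A, and was at 15.4 and 12.9 in wild-type and 25.5 and 26.3 in p53 knockout RPE-1. Reads of near-identical copies, including the many processed pseudogenes of ribosomal protein genes, may have been split or lost by the authors' counting, so levels of single members carry that uncertainty.

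**Figure D5:**
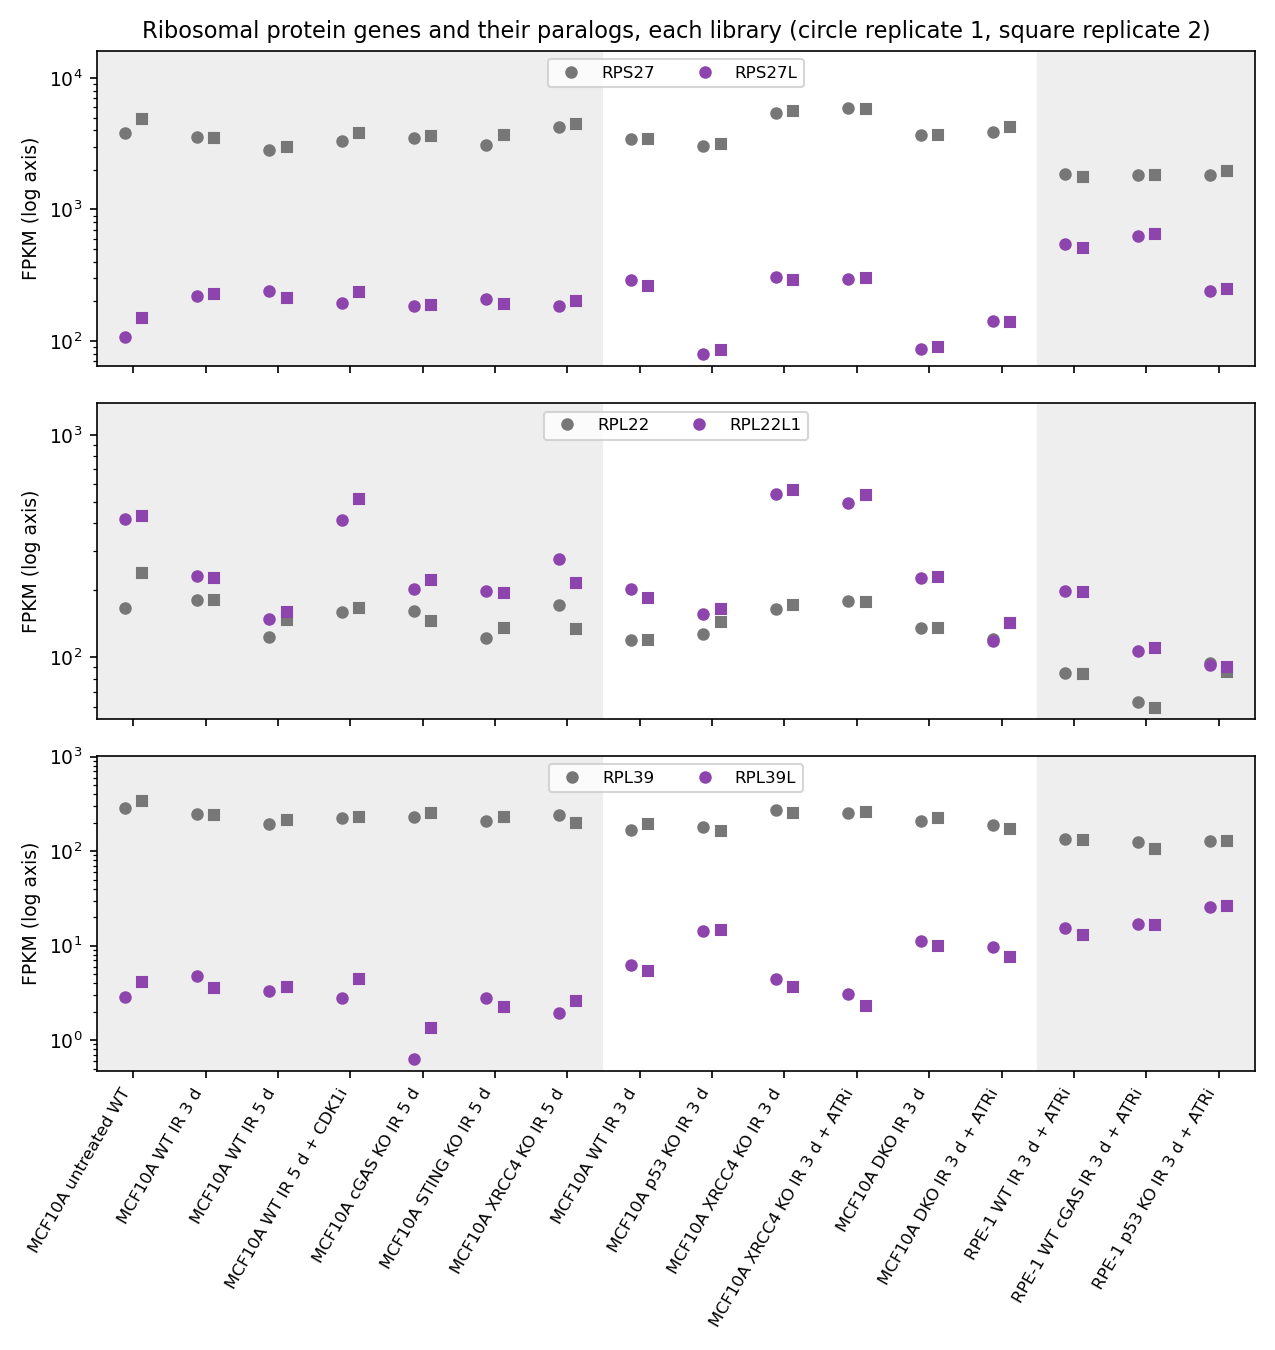
FPKM of RPS27 and RPS27L, RPL22 and RPL22L1, and RPL39 and RPL39L in each library of the 16 groups, on a log axis. RPS27L is lowest in the p53 knockout (79.5 and 85.8 FPKM) and double knockout MCF10A groups, and RPL39L ranges from 0.639 to 26.3 FPKM while RPL39 stays between 105 and 339.

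The wider machinery was followed with 4 lists: ribosome biogenesis factors (102 genes tested), cytosolic translation factors, many of them also TOP mRNAs (47), mitochondrial translation factors (55) and growth control genes of the p53, MYC and mTOR pathways (39). At 5 days after 10 Gy 37 biogenesis genes fell and 2 rose, and 26 translation factors fell, where 13.3% of all genes fell and 14.6% rose. FBL, the methyltransferase of box C/D particles, fell by 1.14 and NAP1L1, a histone chaperone with a TOP mRNA, by 1.38 on the log2 scale. With CDK1i 50 biogenesis genes rose, TCOF1, the nucleolar treacle protein, by 1.06 among them, beside 10 translation factors and 14 mitochondrial translation genes, where 4.27% of all genes rose.

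In the XRCC4 knockout at 3 days 40 of 47 translation factors rose (median 0.60), the elongation factor EEF2 by 1.44 and EIF3K by 1.41, with 70 biogenesis genes up and 5 down (median 0.26) and 37 and 2 of the mitochondrial translation list, where 28.7% of all genes rose and 27.8% fell. In the p53 knockouts, where most called cytosolic ribosomal protein genes fell, 78 biogenesis genes rose and 9 fell in MCF10A (median 0.30), against 25.6% and 27.2% of all genes. In RPE-1 77 rose and 9 fell (median 0.36), against 34.3% and 32.6%. TCOF1 rose by 1.25 and BRIX1, a large-subunit assembly factor, by 0.89 in MCF10A, and NOP2, an rRNA methyltransferase, by 1.34 in RPE-1. TFAM, which packages mitochondrial DNA, rose by 0.92 and 0.91. MYC, a known activator of both ribosomal protein and biogenesis genes, was called in RPE-1 (0.99) and not in MCF10A (0.06, adjusted p 0.238).

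With ATRi in the double knockout 67 biogenesis genes, 38 translation factors and 38 mitochondrial translation genes fell, and 8, 4 and 2 rose, where 32.3% of all genes fell and 25.1% rose. MYC fell by 0.67. Against the XRCC4 knockout with ATRi, EEF1D (−1.75) and EEF1G (−1.71), subunits of the elongation factor 1 exchange complex, had the largest changes of the translation list, of which 44 fell and 1 rose, where 36.0% of all genes fell and 35.3% rose. In the cGAS-labelled RPE-1 cells 38 of 47 translation factors fell and 1 rose, and 30 of 102 biogenesis genes rose and 30 fell, where 30.0% of all genes rose and 30.2% fell, so the biogenesis counts are near the background.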

How the data were processed

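Poly-A RNA-seq of 32 libraries from established cell lines was used, 2 in each of 16 groups. The authors deposited estimated counts per gene and FPKM values per gene; per the submitters' processing notes the tools included bcl2fastq, FastQC, STAR, Cuffnorm and DESeq2 with hg19, and their settings and versions are not given in the sources used here. The estimated counts were rounded to whole numbers. Each of the 3 sets was fitted apart over all its groups with edgeR 4.0.16 in R 4.3.3 (TMM, filterByExpr by group, robust quasi-likelihood, Benjamini-Hochberg over all genes, call at 0.05); SE was taken from the F statistic. The edgeR test was checked on simulated data with the same low spread between libraries for every set. The fitted spread (edgeR's biological coefficient of variation) was 0.1875 in the first set, 0.03599 in the second and 0.03455 in RPE-1. The simulated spread was well below that of the first set, so the check does not cover the calls there. Alternatives were DESeq2 1.42.0, library totals, upper quartile scaling, no filter, a fit of only the groups compared, the replicate number as a block, limma 3.58.1 on log2(FPKM + 1) or log2(FPKM + 0.1), and each library left out; TMM without members was added after seeing the data.

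The members and gene lists were chosen with earlier results of these data known. Named genes were a fixed anchor list, the paralogs, up to 3 called genes per set and direction with the largest change and no overlap of libraries, the extremes of level and range, and up to 2 called genes per pathway list; RPS19 and a few other members are given in addition and were chosen after their values were seen. A member that the rule names is not reported here. Sequences are RefSeq, GRCh38.p14, matched by symbol. No protein sequence was used here. Positions of genes are the deposited hg19 loci.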

Additional observations from a re-analysis of the deposited data

Results flagged for a closer look

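In the second MCF10A set the response to ATRi differed between the XRCC4 knockout with p53 and the one without it, by edgeR's interaction term, for these members, given as the difference of the log2 fold changes (without p53 minus with p53). RPS27L was above 0 at 0.55 (adjusted over all genes like the rest), and MRPL49 at 0.46. Below 0 were RPL3 (−0.94), RPL22L1 (−0.83), RPL10A (−0.70), MRPL12 (−0.61), MRPL30 (−0.57) and MRPL36 (−0.54).

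The effect of XRCC4 knockout differed likewise between lines without and with p53. RPL7 was at −1.39, RPL22L1 at −1.15 and RPS20 at −1.07, and in the mitochondrial set MRPL23 at −1.43, MRPL48 at −1.09 and MRPL21 at −0.90, with MRPL32 above 0 at 0.37. RPL7 and RPS20 lie on chromosome 8 and MRPL23, MRPL48 and MRPL21 on chromosome 11, where genes that are no members had medians of 0.40 and 0.44 for the knockout with p53 and −0.02 and −0.05 without. MRPL32 lies on chromosome 7, whose other genes had a median of −0.51 in the p53 knockout against wild type. The part of these chromosomes was not tested, and each genotype is represented by 1 line.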

How the results depend on the processing

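Limits first: with 2 libraries a group, the count of calls in the first MCF10A set rests on few libraries, and the depth limits low members such as RPL39L. Members called (cytosolic, mitochondrial) kept within 1.5 times the reported count except as follows; the cause was not tested. Fitting only the groups compared gave 0 and 0 at 3 days after 10 Gy (reported 2 and 6), 6 and 7 at 5 days (64 and 33), 0 and 0 for CDK1i (7 and 16), 73 and 24 for the cGAS knockout (32 and 12) and 0 and 6 for the STING knockout (26 and 14). DESeq2 gave 18 cytosolic calls between 3 and 5 days (0), 30 for CDK1i (7), and mitochondrial calls of 0 for ATRi in the XRCC4 knockout (3), 26 for the double against the p53 knockout (43) and 25 for the ATRi interaction (38). With no filter, 19 cytosolic genes were called between 3 and 5 days and 28 for CDK1i, and 2 mitochondrial genes at 3 days and 10 for the XRCC4 knockout at 5 days (22). On library totals mitochondrial counts were 12 for the XRCC4 knockout at 5 days, 18 for the ATRi interaction and 68 for the RPE-1 p53 knockout (43), and by upper quartile scaling 14 and 25 for the first 2. With limma on log2 FPKM plus 1 and plus 0.1, mitochondrial counts were 3 and 3 at 3 days, 4 and 4 for CDK1i, 6 and 6 for the cGAS and for the STING knockout, 7 and 7 for XRCC4 at 5 days, 32 and 32 at 3 days (58), 0 and 0 for ATRi in the XRCC4 knockout, 36 and 36 for the double against the XRCC4 knockout (56), 29 and 26 for ATRi in the double knockout (50), 9 and 9 for the ATRi interaction and 26 and 26 for the XRCC4 interaction (59). Cytosolic counts were 17 and 17 for the STING knockout, 46 and 46 for XRCC4 at 5 days (74), 1 and 1 for ATRi in the XRCC4 knockout (3), 48 and 48 for the ATRi interaction (75), and 1 between 3 and 5 days with plus 1.

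Leaving out each library in turn gave these lowest and highest counts, cytosolic then mitochondrial: 0 to 3 and 0 to 3 at 3 days; 18 to 74 and 17 to 25 at 5 days; 1 to 6 and 0 to 11 for CDK1i; 4 to 11 and 5 to 6 for cGAS; 4 to 32 and 6 to 10 for STING; 47 to 57 and 7 to 10 for XRCC4 at 5 days; 1 to 3 and 0 to 2 for ATRi in the XRCC4 knockout. Mitochondrial counts went from 31 to 39 for the double against the p53 knockout. With an arm of 1 library the spread is assumed to be that of the other groups.

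The correlations of deviations of same-numbered libraries were weak in the second set (−0.082 to 0.125) and in RPE-1 (−0.005 to 0.049). They varied in the first set, from −0.328 to 0.515, so whether some same-numbered libraries there were paired is not settled. With the replicate number as a block, 1 cytosolic gene was called between 3 and 5 days and 16 for CDK1i; no other count of members left 1.5 times the reported one. Of the single genes named, 447 of their values kept direction and side of the threshold with the block and 419 with DESeq2. TMM without members left 451 as they were.

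Reversed signs came with library totals, log2 FPKM plus 1 and plus 0.1, in that order. RPS27 for ATRi in the double knockout (−0.06) became 0.13, 0.14 and 0.14. MRPS18A (−0.11) and MRPS18B (−0.23) for the double against the XRCC4 knockout with ATRi became 0.29, 0.31 and 0.32, and 0.17, 0.17 and 0.18. In the RPE-1 p53 knockout RPL5 (−0.16) became 0.085, 0.094 and 0.094, RPS27 (−0.18) 0.070, 0.062 and 0.062, and RPSA (−0.07) 0.18, 0.18 and 0.18. With log2 FPKM alone, RPL22 there (−0.60) became 0.088 and 0.089, and RPS27 in cGAS-labelled RPE-1 (−0.17) 0.010 and 0.011.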
